A study of Mus musculus with 10 samples.

Results

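The AP-1 and Egr immediate early factors were described over the C6FAE course, in which mouse embryonic fibroblasts (MEFs) are turned by small molecules into cells like those of the extraembryonic endoderm (XEN). They were 10 of the 23197 genes in the table, chosen by name: the Fos family (*Fos*, *Fosb*, *Fosl1*, *Fosl2*), the Jun family (*Jun*, *Junb*, *Jund*), the zinc finger factors *Egr1* and *Egr2*, and *Nab2*. The rule that picked them used names and no measured value, and earlier results of these data were known when it was written. All 10 are listed in the table, and 9 of them reached a mean of 5 CPM (counts scaled to a total of 1000000 per cell) in at least 1 group of cells, *Fosl1* being the exception.

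Single cells were picked by hand after digestion and sequenced with unique molecular identifiers (UMIs), so that each count is meant to stand for 1 captured transcript. With up to 6004864 UMIs in a cell, whether the counts reach this was not checked. C6FAE stands for CHIR99021 (an inhibitor of GSK3), RepSox (an inhibitor of the TGF-β receptor ALK5), Forskolin (an activator of adenylyl cyclase), AM580 (a retinoic acid receptor agonist) and EPZ004777 (an inhibitor of Dot1l). The groups are named by day: d0 for the starting MEFs, then d1, d2, d3, d4, d5, d6p (the p is not explained in the sources used here), d8, d12 and d20, with d8c and d12c for cells picked from colonies on days 8 and 12. All cells come from MEF cultures grown with fetal bovine serum. The reprogramming medium also held KnockOut Serum Replacement and basic fibroblast growth factor, neither of which is listed for the MEF medium. A difference from d0 is thus not one of the small molecules alone. The paper's methods also list valproic acid in this medium, whereas its results name the single-cell course C6FAE. The reprogramming medium was renewed every 4 days, and how long after a renewal the cells were picked is not given in the sources used here. Of 808 cells, the 670 with at least 4000 detected genes were kept, between 20 (d8c) and 86 (d6p) per group, with a median of 510306 UMIs (17633 to 6004864). The names of the cells do not show which of the 10 deposited batches they belong to, so the cells count as 1 sample, no difference was tested, and intervals cover counting error only.

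The labels were set beside marker genes. *Col1a1*, the main fibrillar collagen gene of fibroblasts, had a mean of 1237 CPM at d0, 5267 CPM at d8 and 3.63 CPM at d20. *Sox17*, an endoderm factor of XEN cells, had a mean of 0.113 CPM at d0, 70.8 CPM at d12, 469.8 CPM at d12c and 982.3 CPM at d20. The 12 XEN markers as a sum did not follow *Sox17*. Their mean sum was 2038 CPM at d0, 4013 CPM at d8, 4012 CPM at d12, 2501 CPM at d12c and 3116 CPM at d20. The d12c cells did not form 1 kind. Those numbered 1 to 24 (21 cells) had a median summed level of 11 fibroblast markers of 6472 CPM. Those numbered 49 to 96 (30 cells) had 37.0 CPM. In the same order, the median XEN sum was 2713 and 2098 CPM. The median share of spike-in counts ranged from 2.58% at d1 to 19.3% at d20, and the median depth was lowest at d20, with 195480 UMIs. The 6 macrophage markers summed to a mean of 16.2 CPM (median 1.22 CPM) at d8, 72.9 CPM (19.98 CPM) at d12 and 96.1 CPM (67.8 CPM) in the first range of d12c. Among them *Adgre1* was at 0 and *Ptprc* at a mean of at most 0.0824 CPM at d0, d8, d12, d12c and d20. The 6 endothelial markers summed to a mean of 10.4 CPM (median 0 CPM) at d8 and 42.1 CPM (4.34 CPM) at d12. Skeletal muscle markers had a mean sum of 530.0 CPM and a median of 6.15 CPM at d0, and 3084 and 30.9 CPM in the first range of d12c.

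AP-1 is a dimer of a Fos and a Jun protein, or of 2 Jun proteins, that binds short DNA motifs in promoters and enhancers and passes on signals from the ERK, JNK and cAMP pathways. Fos, Egr and several Jun genes are immediate early genes: their transcription starts within minutes of a signal without new protein synthesis, and their mRNAs are short-lived. Egr proteins bind GC-rich motifs, and Nab proteins bind Egr proteins and repress them, with *Nab2* itself known as an Egr target. In fibroblasts these genes respond to serum, wounding and handling, and AP-1 is known as a guard of the fibroblast state in other kinds of reprogramming.

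Promoter windows, from 250 bases before to 50 bases after a start site, were found for 8 of the 10 members in RefSeq (GRCm38.p6). The 250 bases before the start site are shown for *Fos*, *Fosb* and *Egr2*, since these members of 2 families differed between days by more than 2-fold and their windows hold letters of motifs that bind factors of the cAMP, serum and Egr responses. The windows are chr12:85473640-85473889 on the plus strand, chr7:19310046-19310295 on the minus strand and chr10:67537619-67537868 on the plus strand, in that order, with motif letters in capitals.
Fos: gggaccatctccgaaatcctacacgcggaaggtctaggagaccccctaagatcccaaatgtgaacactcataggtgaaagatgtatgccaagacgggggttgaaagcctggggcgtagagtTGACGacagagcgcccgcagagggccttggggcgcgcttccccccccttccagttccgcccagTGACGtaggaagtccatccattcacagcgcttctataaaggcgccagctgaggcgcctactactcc
Fosb: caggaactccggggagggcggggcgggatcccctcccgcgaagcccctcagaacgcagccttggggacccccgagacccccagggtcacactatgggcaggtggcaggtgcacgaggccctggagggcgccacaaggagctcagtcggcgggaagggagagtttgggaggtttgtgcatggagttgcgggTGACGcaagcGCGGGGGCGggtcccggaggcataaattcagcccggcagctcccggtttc
Egr2: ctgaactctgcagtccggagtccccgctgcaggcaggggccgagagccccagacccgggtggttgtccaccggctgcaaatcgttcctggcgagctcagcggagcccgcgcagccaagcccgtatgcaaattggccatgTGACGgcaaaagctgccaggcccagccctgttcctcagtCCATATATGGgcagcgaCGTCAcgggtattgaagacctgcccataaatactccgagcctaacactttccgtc
The motifs searched on both strands were the cAMP response element (TGACGTCA), its core TGACG, which lies inside it, the AP-1 motif TGANTCA, the Egr motif GCGNGGGCG and the CArG box, which binds serum response factor. *Fos* held TGACG at 129 and at 66 bases before its start site. *Fosb* held TGACG at 60 bases and an Egr motif at 50 bases before it. *Egr2* has several start sites, and the window shown held a CArG box at 72 bases before the start, flanked by TGACG at 111 bases and its reverse complement at 55 bases. Of the other windows, *Junb* held TGACG, *Fosl2* held an Egr motif, and those of *Jun*, *Jund* and *Nab2* held none of the motifs. Over 32544 promoter windows of the same length, TGACG was found in 20.9%, the full cAMP element in 1.8%, the AP-1 motif in 7.79%, the Egr motif in 5.6% and the CArG box in 1.64%. These matches describe letters in a window and were not set against binding data.

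On NCBIM37 (mm9), the build of the count table, *Fos* lies on chromosome 12 (86814840 to 86818223, plus strand), *Fosb* on chromosome 7 (19888070 to 19895394, minus strand) and *Fosl2* on chromosome 5 (32438845 to 32460204, plus strand). *Junb* (87500811 to 87502617, minus strand) and *Jund* (73221638 to 73224515, plus strand) both lie on chromosome 8, and *Jun* lies on chromosome 4 (94715725 to 94718913, minus strand). *Egr2* (66998223 to 67004936, plus strand) and *Nab2* (127097974 to 127105624, minus strand) both lie on chromosome 10. Whether counting used the strand is not stated, and 5 members overlap a gene on the other strand in GENCODE M1: *Fosl1*, *Jun*, *Jund*, *Egr1* and *Nab2*. *Nab2* shares 1668 bases with *Tmem194*, 1646 bases with *Gm16229* and 40 bases with *Stat6*. *Stat6* had a mean of 5.13 CPM at d8 and 5.65 CPM at d12. *Tmem194* and *Gm16229* were not found by name among the counted genes, so these larger overlaps could not be checked. *Fosl1* shares 2783 bases with *Ccdc85b*, which had a mean of 19.5 to 159.7 CPM over the groups while *Fosl1* stayed near 0.

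*Fos*, which encodes the founding Fos protein, alternated between days in the early course and was highest in d8c. Its mean level was 57.9 CPM at d0, 206.0 CPM at d1, 84.7 CPM at d2, 315.8 CPM at d3, 62.3 CPM at d4, 174.0 CPM at d5 and 34.7 CPM at d6p. It was 238.1 CPM at d8, 1167 CPM at d8c, 163.5 CPM at d12, 77.4 CPM at d12c and 99.8 CPM at d20. By means over all cells of a day, *Fos* was thus high on the odd days 1, 3 and 5 and low on the even days up to 6. Within d2 it differed by running number, as given below. The middle cells of d1 lay between 111.4 and 278.5 CPM (quartiles), above the upper quartiles of d0 (67.6 CPM) and d2 (105.8 CPM). The quartiles of d3 (56.3 to 356.6 CPM) and of d5 (32.8 to 196.5 CPM) overlapped those of their neighbouring days in the order of levels. The groups d1, d3 and d5 also hold fewer cells in the table (36 to 40) than d0, d2, d4 and d6p (84 to 96), and the part of this in the pattern was not tested.

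**Figure D1:**
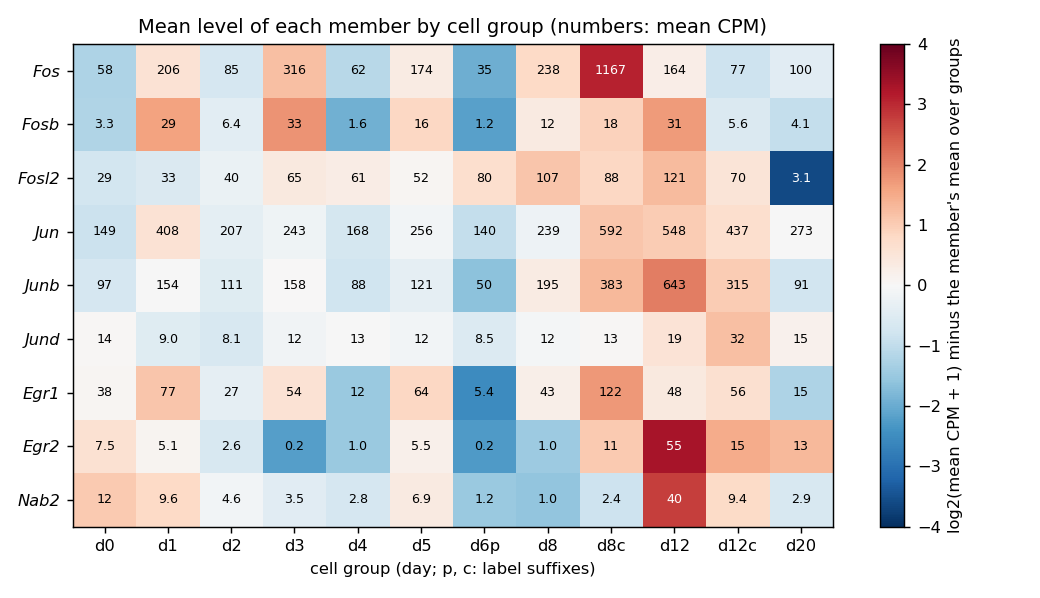
Mean level of 9 members in the 12 cell groups. Numbers are mean CPM, and the colour is the difference of log2(mean CPM + 1) from the member's own mean over the groups, so rows compare groups and not genes. *Fos* stands out at d8c (1167 CPM), *Egr2* and *Nab2* at d12 (54.7 and 40.1 CPM), and *Fosl2* is lowest at d20 (3.09 CPM).

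*Fosb*, a close relative of *Fos*, had a like order of days. Its mean was 3.28 CPM at d0, 29.3 CPM at d1, 6.43 CPM at d2, 33.1 CPM at d3, 1.59 CPM at d4, 16.4 CPM at d5 and 1.19 CPM at d6p. It was 11.8 CPM at d8, 17.8 CPM at d8c, 31.3 CPM at d12, 5.55 CPM at d12c and 4.07 CPM at d20. Cells with a *Fosb* UMI made up 23.6% of d0 cells (14.4 to 35.1%, exact Clopper-Pearson interval) and 80.0% of d1 cells (64.4 to 91.0%). After each cell was thinned to 50000 UMIs a *Fosb* UMI was left in 7 of 71 and 20 of 40 cells.

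*Fosl1*, which encodes Fra-1, was close to absent from the table of kept cells. It had 40 UMIs in 17 of 670 cells (2.54%, 1.49 to 4.03%). No UMI was counted in the 72 d0 cells, which allows a share of cells with a UMI of up to 4.17% by counting error (3 cells), nor in d4, d5, d6p, d8, d8c or d20.

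*Fosl2*, which encodes Fra-2, did not alternate with *Fos* and was high from d6p to d12. Its mean was 29.1 CPM at d0, 32.5 CPM at d1, 40.5 CPM at d2, 65.4 CPM at d3, 60.9 CPM at d4, 52.4 CPM at d5 and 79.6 CPM at d6p. It was 106.7 CPM at d8, 88.4 CPM at d8c, 120.6 CPM at d12, 70.0 CPM at d12c and 3.09 CPM at d20. All 67 d12 cells held a *Fosl2* UMI, against 8 of 38 d20 cells (21.1%, 9.55 to 37.3%). The quartiles of d12 (56.2 to 163.4 CPM) and d8 (38.7 to 174.5 CPM) overlapped, whereas the upper quartile of d20 was 0 CPM. *Fosl2* held 32.3% of the summed CPM of the Fos family at d0, 68.9% at d6p, 38.2% at d12 and 2.88% at d20, where *Fos* held 93.3%.

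**Figure D2:**
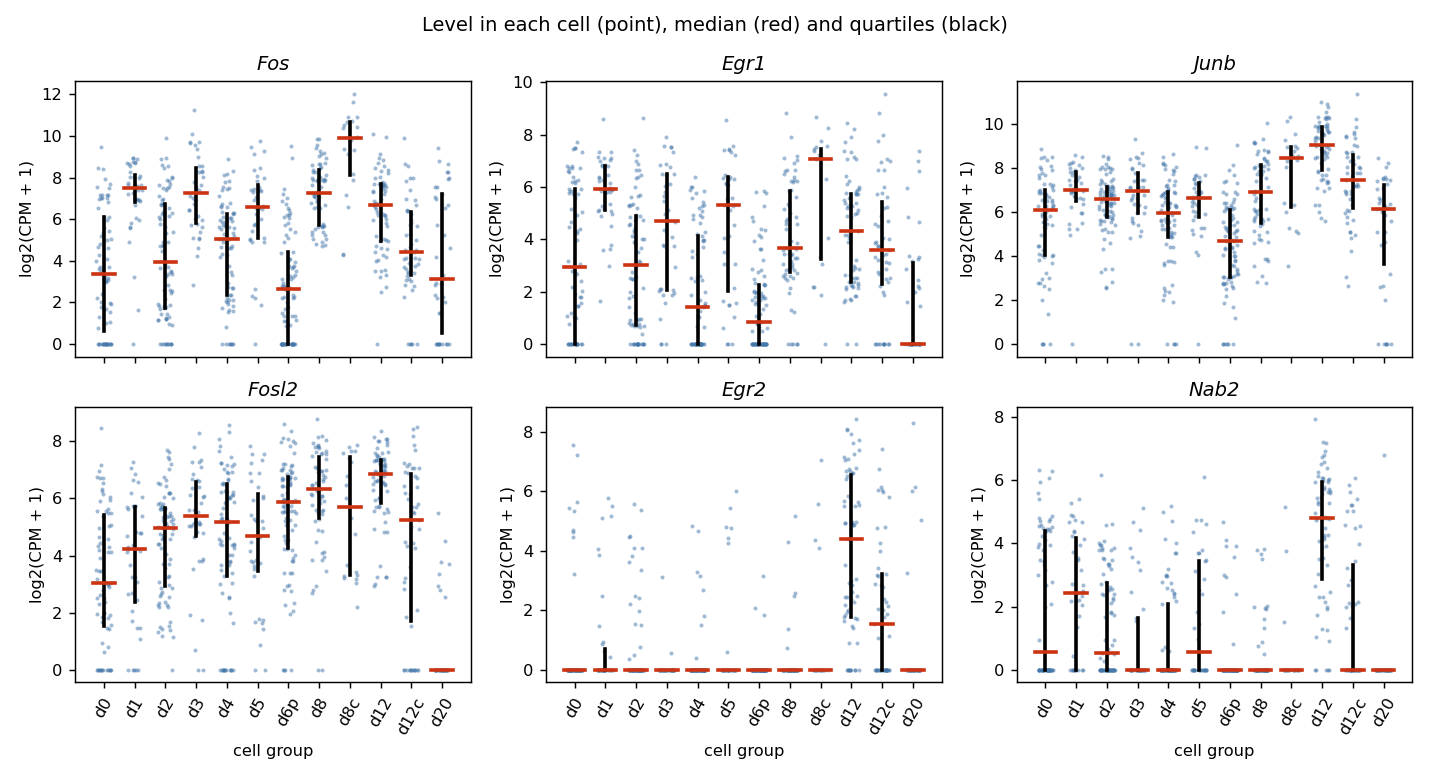
Level of 6 members in each kept cell, as log2(CPM + 1), by cell group. Each point is 1 cell, the red line is the median and the black bar spans the quartiles. For *Egr2* the median is 0 in every group but d12 (20.2 CPM) and d12c (1.92 CPM), and the d20 cells of *Fosl2* lie mostly at 0.

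Among the Jun genes, *Jun* had a mean between 140.5 CPM (d6p) and 592.2 CPM (d8c), and it was found in 94.2% or more of the cells of every group. The groups with the highest means after d8c were d12 (547.6 CPM), d12c (437.4 CPM) and d1 (407.7 CPM), and the quartiles of these 4 groups overlapped. *Junb*, whose protein can oppose that of *Jun* on some promoters, had its highest mean at d12 (643.1 CPM), followed by d8c (383.1 CPM) and d12c (315.1 CPM), with overlapping quartiles, and its lowest at d6p (49.5 CPM). *Junb* made up 53.1% of the summed CPM of the Jun genes at d12, against 37.3% at d0 and 24.0% at d20. *Jund*, the member of the family known for steady expression, had a mean of 8.07 CPM (d2) to 31.5 CPM (d12c), and passed the 2-fold rule in none of the 6 comparisons given below.

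*Egr1*, an early sensor of ERK signalling, had the same alternation as *Fos* in its means over all cells of a day. Its mean was 37.7 CPM at d0, 77.5 CPM at d1, 27.5 CPM at d2, 54.2 CPM at d3, 12.1 CPM at d4, 63.8 CPM at d5 and 5.40 CPM at d6p. It was 42.7 CPM at d8, 122.2 CPM at d8c, 47.6 CPM at d12, 55.7 CPM at d12c and 14.7 CPM at d20. The level was high in d8c and low in d6p and d20, where the median cell was at 0.780 and 0 CPM. The quartiles of d8c (8.58 to 176.2 CPM) overlapped those of d1 (33.7 to 111.4 CPM), its neighbour in the order.

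*Egr2*, a factor best known from hindbrain and Schwann cells, was rare in most groups and common at d12. Its mean was 7.53 CPM at d0, 5.10 CPM at d1, 2.59 CPM at d2, 0.216 CPM at d3, 1.01 CPM at d4, 5.52 CPM at d5 and 0.159 CPM at d6p. It was 1.05 CPM at d8, 10.7 CPM at d8c, 54.7 CPM at d12, 14.8 CPM at d12c and 12.8 CPM at d20. Cells with a UMI made up 9.68% of d8 cells (3.64 to 19.9%) and 85.1% of d12 cells (74.3 to 92.6%), and after thinning 3.39% and 59.1%. The d20 mean rests on few cells: 5 of 38 held a UMI, and the mean without the highest cell was 4.68 CPM.

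*Nab2*, which encodes a corepressor of Egr proteins, had its highest mean in the same group as *Egr2*. Its mean was 11.6 CPM at d0, 9.64 CPM at d1, 4.63 CPM at d2, 3.48 CPM at d3, 2.83 CPM at d4, 6.87 CPM at d5 and 1.18 CPM at d6p. It was 1.05 CPM at d8, 2.44 CPM at d8c, 40.1 CPM at d12, 9.37 CPM at d12c and 2.91 CPM at d20. *Nab2* was lowest at d6p and d8 and highest at d12, where its quartiles (6.26 to 60.1 CPM) overlapped those of d0 (0 to 19.9 CPM), the next in the order. At d20 all 45 *Nab2* UMIs came from 1 of 38 cells. At d12, 55 of 67 cells held UMIs of both *Egr2* and *Nab2*, 2 held *Egr2* alone, 7 held *Nab2* alone and 3 held neither. At d0, 7 of 72 cells held both, 2 held *Egr2* alone and 29 held *Nab2* alone.

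In all, 6 pairs of groups were compared. A gene was counted as higher or lower when the ratio of its mean CPM, with 1 CPM added to both, was at least 2-fold, among genes with a mean of at least 5 CPM in either group. These are sizes, not tests, and pairs that share a group are not independent of each other. The pair d8c and d8 was added after the data had been seen.

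From d0 to d1, the first day under the cocktail and in its medium, 4 of 9 members passed as higher. These were *Fosb* (log2 fold 2.82), *Fos* (1.81), *Jun* (1.45) and, just past the rule, *Egr1* (1.02). Of all genes 9.75% were higher. No member was lower, against 11.7% of all genes. Of the other immediate early genes 7 of 35 were higher and 9 lower, with a median log2 fold of -0.09 beside 0.02 for all genes. *Egr3* (log2 fold 2.76), a relative of *Egr1*, and *Ier3* (2.10) stood furthest above d0 among them, and *Ctgf* (-4.90), a matrix-associated growth factor, and *Gadd45g* (-2.62) furthest below it. *Crem* (1.77), a factor of the cAMP response that is itself induced by cAMP, led the bZIP partners, of which 3 of 19 were higher and 3 lower. Among textbook AP-1 targets 5 of 17 were higher and 5 lower, led by *Mmp3* (3.46), a matrix protease. With edgeR TMM and with DESeq2 factors *Egr1* no longer passed (0.95 and 0.99), and *Egr2* passed as lower (-1.73 and -1.70, against -0.48).

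From d0 to d8, 4 of 9 members were higher: *Fos* (log2 fold 2.02), *Fosl2* (1.84), *Fosb* (1.58) and, just past the rule, *Junb* (1.00). Of all genes 18.6% were higher. *Nab2* (-2.62) and *Egr2* (-2.06) were lower, and 14.9% of all genes were. Of textbook AP-1 targets, in contrast, 12 of 18 were lower and 2 higher, with a median log2 fold of -1.66 beside 0.04 for all genes. *Hbegf* (-5.68), an EGF receptor ligand, was among those lower, and *Mmp9* (3.53) stood furthest above d0. Per spike-in UMI *Fosl2* alone passed as higher, without the filter on detected genes *Fosb* and *Fosl2* did, and with a pseudocount of 10 CPM neither *Nab2* nor *Egr2* passed as lower. *Junb* did not pass with TMM or DESeq2 factors.

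In cells picked from colonies on day 8 (d8c) beside the d8 cells, 4 of 8 members were higher: *Egr2* (log2 fold 2.51), *Fos* (2.29), *Egr1* (122.2 against 42.7 CPM) and *Jun* (1.31). Of all genes 14.3% were higher and 15.9% lower, and no member was lower. The *Egr2* value rests on 4 of 20 cells, and without the highest cell its d8c mean was 4.33 CPM, below the 5 CPM of the rule. The *Fos* mean without the highest of the 20 cells was still 1007 CPM, and per spike-in UMI *Fos* alone passed as higher. The *Jun* medians were closer than its means, at 226.6 CPM in d8c and 164.1 CPM in d8. Of the other immediate early genes 11 of 37 were higher and 3 lower, led by *Atf3* (log2 fold 4.09), a stress-induced bZIP factor, at 45.3 CPM in d8c and 1.72 CPM in d8. *Hspa1a* (1.41) and *Hspd1* (1.22) were the 2 of 14 heat shock genes that were higher, and none was lower. Fibroblast markers summed to a median of 6391 CPM in d8c and 14880 CPM in d8, and the part of either in the *Fos* values was not tested.

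**Figure D3:**
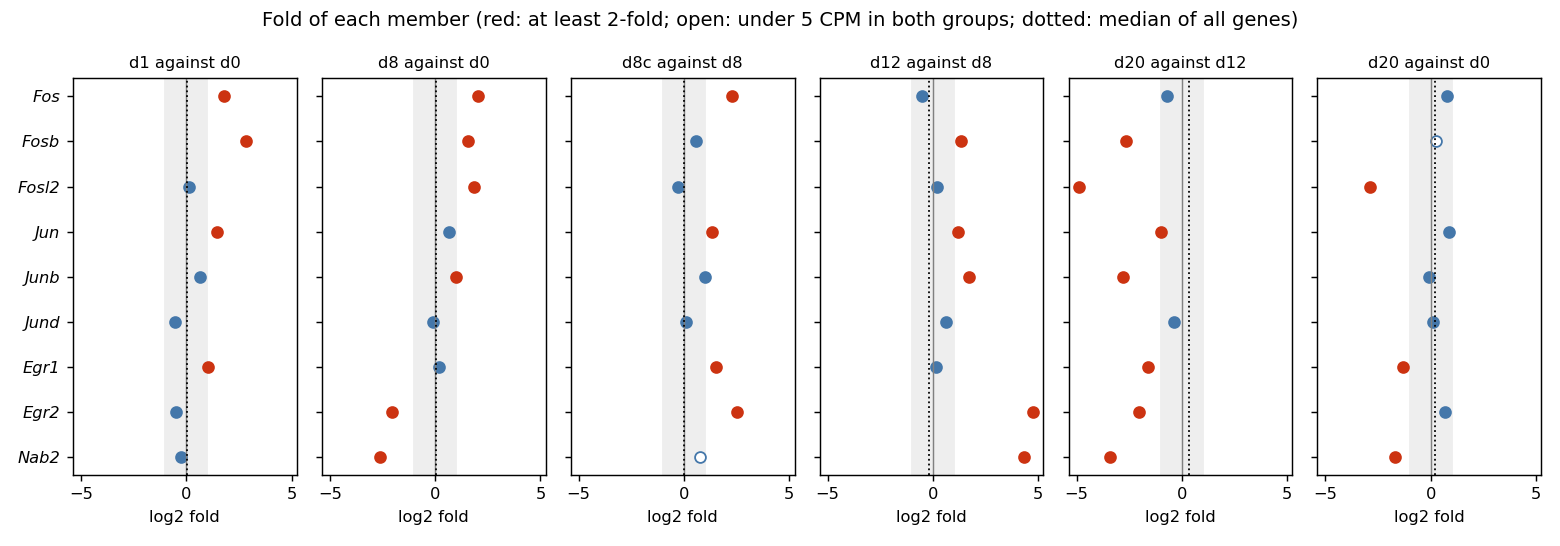
log2 fold of the mean CPM (1 CPM added) of 9 members in 6 comparisons. Red points are at least 2-fold, open points are under 5 CPM in both groups, the grey band marks less than 2-fold and the dotted line is the median of all genes tested. *Egr2* and *Nab2* lie furthest to the right at d12 against d8 (4.77 and 4.33) and *Fosl2* furthest to the left at d20 against d12 (-4.90).

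From d8 to d12, in cells not labelled as picked from colonies, 5 of 9 members were higher: *Egr2* (log2 fold 4.77, a mean of 54.7 against 1.05 CPM), *Nab2* (4.33), *Junb* (1.72), *Fosb* (1.34) and *Jun* (1.19). Of all genes 14.6% were higher. None was lower, against 17.5% of all genes, and *Fos* had a value of -0.54. The step set most other lists apart from all genes as well. Some genes, such as *Egr3*, *Atf3* and *Vegfa*, stand in more than 1 of these lists and are counted in each. Of the other immediate early genes 23 of 40 were higher and 1 lower (median 1.25 beside -0.19 for all genes), led by *Phlda1* (4.66) and *Ptgs2* (4.28), the inducible cyclooxygenase. Textbook AP-1 targets were higher in 14 of 19 and lower in 1 (median 3.18), with *Hbegf* at 1.64 and 249.8 CPM and *Il6*, a cytokine, at 4.23 and 133.0 CPM. Among Egr and Nab genes and Egr1 targets 8 of 12 were higher and 1 lower, led by *Dusp4* (4.51), an ERK phosphatase, and *Egr3* (4.15). Of the kinases and factors upstream 4 of 16 were higher and 2 lower (median 0.36). Of the bZIP partners 10 of 20 were higher and 2 lower, and of heat shock genes 4 of 14 were higher and none lower. Per spike-in UMI *Egr2* and *Nab2* alone of the members passed as higher, and *Fos* passed as lower. In that setting 5614 of 9375 genes passed as lower. The median log2 fold of all genes was -1.20 and that of *Fos* -1.50. Between d8 and d12 the epithelial markers went from a median sum of 12.4 to 122.7 CPM (means 81.1 and 782.1 CPM) and the macrophage markers from 1.22 to 19.98 CPM, and their part in the member values was not tested.

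From d12 to d20, 7 of 9 members were lower: *Fosl2* (log2 fold -4.90), *Nab2* (-3.39), *Junb* (-2.81), *Fosb* (-2.67), *Egr2* (-2.01), *Egr1* (-1.63) and, just past the rule, *Jun* (272.7 against 547.6 CPM). Of all genes 22.9% were lower. No member was higher, against 30.8% of all genes. *Fos* (-0.71) and *Jund* (-0.37) were within 2-fold, but *Fos* passed as lower with TMM (-1.48), with DESeq2 factors (-1.36) and per spike-in UMI (-1.66). The other immediate early genes were lower in 31 of 40 and higher in 1, *Klf4* (2.58), with a median of -2.57 beside 0.32 for all genes. *Ptgs2* was listed at 0 at d20, and *Cebpb* had 69.8 CPM at d12 and 0.0475 CPM at d20. AP-1 targets were lower in 15 of 18 and higher in none (median -3.19), and *Ccl2*, a chemokine, had 586.3 CPM at d12 and 0.306 CPM at d20. The median depth was 768565 UMIs at d12 and 195480 UMIs at d20. The fibroblast markers summed to a median of 10590 CPM at d12 and 48.6 CPM at d20. In d12c cells above 48 that median was 37.0 CPM. From those cells to d20, the means of *Nab2* (2.20 and 2.91 CPM) and *Egr2* (13.2 and 12.8 CPM) were near level. Without the highest d20 cell, however, the d20 means were 0 and 4.68 CPM in this order. The shares of cells with a UMI of either were lower at d20, as given below. *Fosl2* (27.1 and 3.09 CPM), *Junb* (286.2 and 90.6 CPM), *Egr1* (67.8 and 14.7 CPM) and *Jun* (485.4 and 272.7 CPM) were lower. *Jund* was lower too (39.0 and 14.7 CPM). *Fosb* had 6.20 and 4.07 CPM and *Fos* 117.9 and 99.8 CPM. The part of the kind of cell was not tested. At an equal depth of 50000 UMIs, *Fosl2* was found in 95.5% of d12 cells and 2.78% of d20 cells.

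Between the ends of the course, d20 beside d0, 3 of 8 members were lower: *Fosl2* (log2 fold -2.88), *Nab2* (-1.69, from the single d20 cell) and *Egr1* (-1.30). Of all genes 19.1% were lower. No member was higher, against 23.2% of all genes, and *Junb* (-0.09) and *Jund* (0.12) were near their d0 level. Of AP-1 targets 11 of 17 were lower and 2 higher, and of other immediate early genes 14 of 34 were lower and 5 higher, with *Socs3* (4.52), an inhibitor of cytokine signalling, furthest above d0. Per spike-in UMI 9 members passed as lower, with the median of all genes shifted by -2.68, and *Egr1* did not pass with summed UMIs.

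The 2 ranges of d12c cells stood apart in *Fosl2* and *Nab2*, members that were also at least 2-fold lower at d20 than at d12. *Fosl2* had a mean of 131.2 CPM in d12c cells numbered 1 to 24, as in d12 (120.6 CPM), and of 27.1 CPM in those numbered 49 to 96. A *Nab2* UMI was found in 92.5% of d12 cells, 95.2% of the first range, 10.0% of the second range and 2.63% of d20 cells, and after thinning in 63.6%, 57.1%, 7.69% and 2.78%. *Egr2* followed this order in its shares (85.1%, 85.7%, 33.3% and 13.2%) and less in its means (54.7, 17.3, 13.2 and 12.8 CPM). *Fos* did not: it was 163.5, 19.5, 117.9 and 99.8 CPM. *Jun* and *Junb* were found in all cells of both ranges. The fibroblast markers summed to medians of 10590, 6472, 37.0 and 48.6 CPM in this order and the epithelial markers to 122.7, 239.7, 2512 and 2215 CPM, and the part of this in the member values was not tested.

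**Figure D4:**
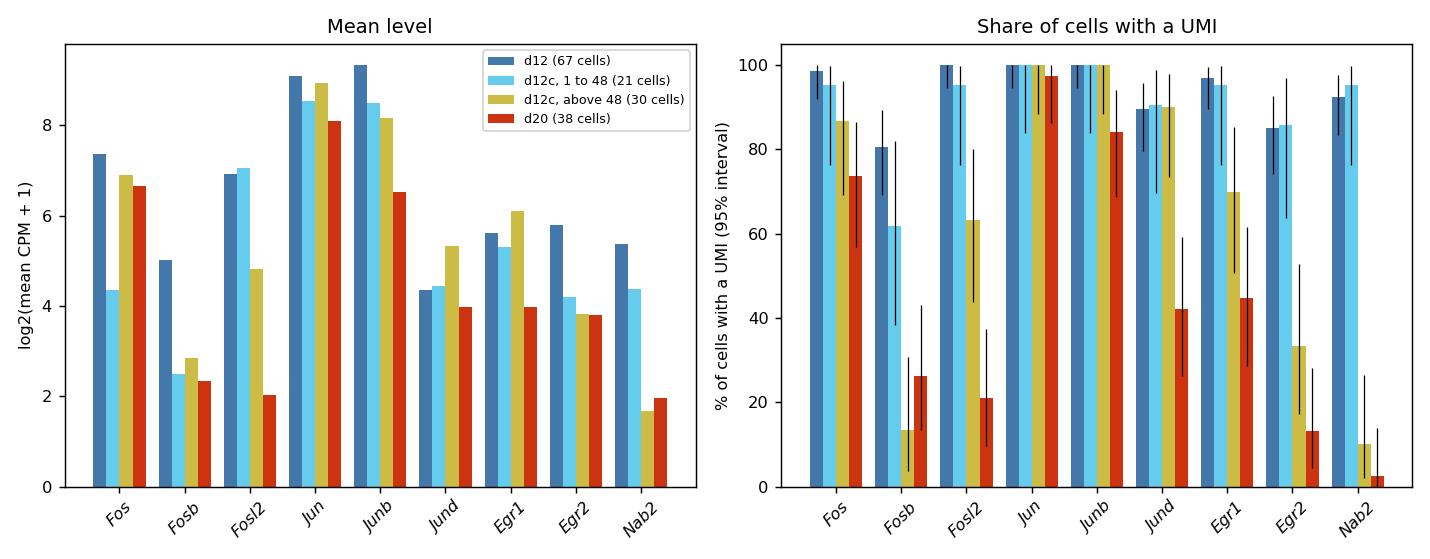
Mean level, as log2(mean CPM + 1), and share of cells with a UMI, with 95% exact intervals that cover counting error only, of 9 members at d12, in the 2 ranges of d12c and at d20. The shares of *Nab2* (92.5%, 95.2%, 10.0% and 2.63%) separate d12 and the first range from the second range and d20, whereas *Jun* is found in 97.4% or more of the cells of each.

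Running numbers also separated cells within a day. At d2, *Fos* had a mean of 147.6 CPM in cells numbered 1 to 48 and 10.2 CPM in cells above 48, and *Egr1* 45.9 and 5.70 CPM. The quartiles of *Fos* (39.2 to 196.3 and 0.226 to 8.45 CPM) did not overlap. At d0, *Fos* had 84.0 and 19.2 CPM, and at d4 the order was the opposite, with 39.4 and 87.0 CPM. *Fosl2* at d4 had 92.8 and 26.5 CPM, beside fibroblast marker medians of 6813 and 2138 CPM, whose part was not tested. *Jun* (176.9 and 243.1 CPM) and *Junb* (123.7 and 96.7 CPM) differed less at d2. With only cells numbered 1 to 48, the *Fos* mean was still higher at d1 (206.0 CPM) than at d0 (84.0 CPM) and d2 (147.6 CPM). The quartiles of d1 overlapped those of both. The d2 mean of these cells was near the mean of all d5 cells (174.0 CPM), whose quartiles were 32.8 to 196.5 CPM. The *Egr1* mean of these d2 cells (45.9 CPM) was near that of all d3 cells (54.2 CPM). Whether the ranges stand for plates or batches is not stated. At d8 and d12, both ranges gave *Nab2* near 1 CPM (1.22 and 0.696 CPM) and well above it (34.9 and 50.9 CPM), so *Nab2* was higher at d12 in each.

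**Figure D5:**
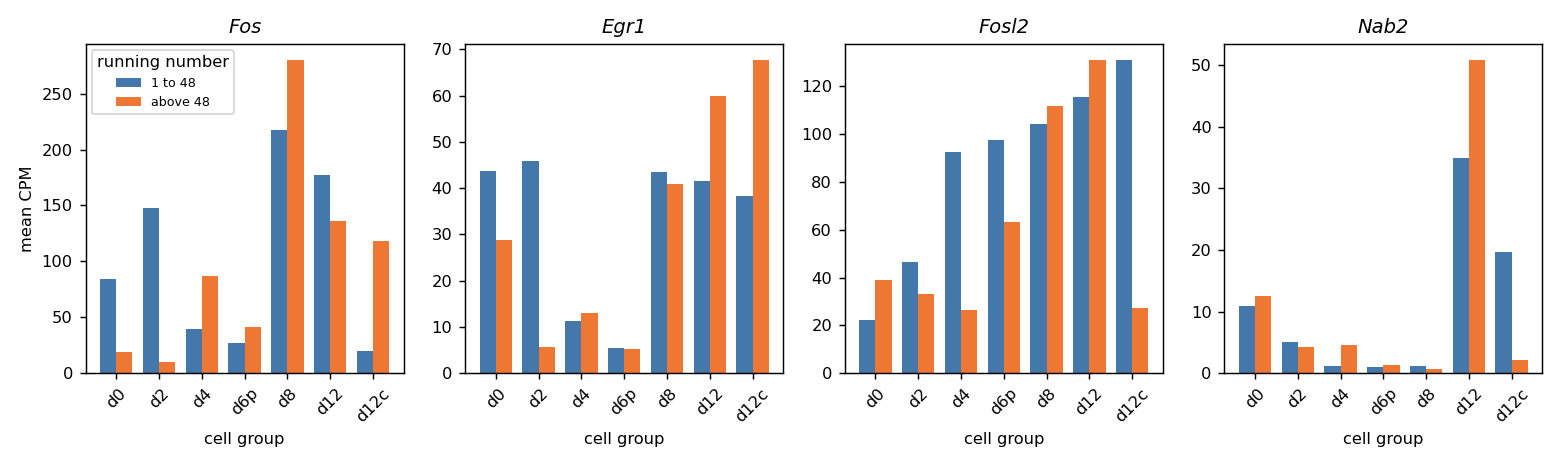
Mean CPM of *Fos*, *Egr1*, *Fosl2* and *Nab2* in cells numbered 1 to 48 (blue) and above 48 (orange), for the 7 groups with at least 10 kept cells in both ranges. *Fos* and *Egr1* differ between the ranges at d2 (147.6 and 10.2 CPM, 45.9 and 5.70 CPM), whereas *Nab2* is high in both ranges of d12 (34.9 and 50.9 CPM).

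Across cells of the same group, the members varied together weakly. Spearman correlations of CPM were taken within each of the 11 groups with at least 30 cells. The highest median over groups was that of *Fos* with *Fosb* (0.33), followed by *Fos* with *Junb* (0.30), *Fos* with *Egr1* (0.27), *Fosb* with *Egr1* (0.27) and *Junb* with *Egr1* (0.23), and no other pair had a median above 0.2. *Fos* with *Egr1* ranged from 0.01 (d12, 67 cells) to 0.61 (d20, 38 cells), and its median after thinning was 0.18. *Egr2* with *Nab2* had 0.31 at d12 and 0.40 at d12c (51 cells), and after thinning 0.22 and 0.10. *Fos* with *Fosl2* had values from -0.30 (d12c) to 0.22 (d20). These cells share depth, library and, in d12c, kind of cell, and in sparse counts such values are descriptions.

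For each member the 3 genes with the most similar mean log2(CPM + 1) over the 12 groups were sought among 8114 genes. *Fos* was most like *Mtf1*, *Pcp4l1* and *Rgs2* (Pearson r 0.82, 0.80 and 0.80), and *Egr1* like *C1qtnf12*, *Mboat1* and *Rgs2* (0.84, 0.83 and 0.82). *Rgs2*, a regulator of G protein signalling, stood in both. The nearest member to *Fos* was *Egr1* (0.86), above any other gene. *Jun* was most like *Ier2*, *Gng5* and *Pisd* (0.86, 0.85 and 0.83), and *Junb* like *Il34*, *Neat1* and *Nfkbia* (0.89, 0.89 and 0.87). *Ier2* and *Nfkbia*, the inhibitor of NF-κB, are immediate early genes of the list above. *Egr2* was most like *Kiss1*, *Crhbp* and *Tnfaip3* (each 0.96) and *Nab2* like *Dok5*, *Rassf6* and *Nrg1* (each 0.95), with 0.82 between the 2 members. *Fosl2* was most like *Fzd1*, *Inhbb* and *Mgst1* (0.95, 0.94 and 0.94). *Fosb* was most like *Twnk*, *Naaa* and *Zbtb38* (0.86, 0.86 and 0.85), and *Jund* like *Cldn3*, *Cldn4* and *B3gnt2* (0.87, 0.85 and 0.84), of which the first 2 are claudins of epithelial tight junctions. The match of *Fosl1* with *Gm3776*, *Gsta2* and *Gsta1* rests on 40 UMIs. Values over 12 groups from a search of this size are descriptions, and 6 of the 30 matches were also among the 3 nearest by Spearman correlation.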

How the data were processed

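Transcripts were counted in single cells of the C6FAE course. The deposited values are UMI counts per gene and cell, made by the authors from reads assigned to cells by barcode, trimmed, mapped to mouse transcripts (mm9) and collapsed by UMI. The aligner is not given in the sources used here. The table held 23197 genes, 92 spike-in RNAs and 808 cells. The 808 columns name no batch and were treated as 1 sample, so no test was made. Cells with fewer than 4000 detected genes were left out (138 cells), library sizes excluded spike-ins, the mean CPM of each group's cells was taken, and a pseudocount of 1 was added before log2. A size rule of 2-fold with a mean of at least 5 CPM in either group stood in place of a test. Cells were also thinned to 50000 UMIs each, which 23 kept cells did not reach. At that depth 1 UMI is 20 CPM. Intervals are exact Poisson or Clopper-Pearson at 95%, and a share of 0 was read as allowing 3 cells.

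The members and gene lists were chosen with earlier results of these data known. Named genes were the members, up to 2 with the largest rise and 2 with the largest fall from each list in a comparison, and the 3 most similar genes per member with at least 20 CPM in a group. *Col1a1*, *Sox17*, *Stat6* and *Ccdc85b* and the other overlapping or marker genes were named in addition, to check labels and overlaps. Positions are from GENCODE M1 (NCBIM37), counted from 1. Alternatives covered the cell filter, averaging, scaling, thinning, pseudocount, low-value filter, size rule, highest cell and running number. The tools were scipy 1.17.1, pandas 2.3.3 and numpy 2.4.6 under Python 3.11.15, and, for scaling factors only, DESeq2 1.42.0 and edgeR 4.0.16 under R 4.3.3. The comparison of d8c with d8 and the correlations within running numbers were added after the data had been seen.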

Additional observations from a re-analysis of the deposited data

How the results depend on the processing

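All 29 member folds past the 2-fold rule kept their sign under the 14 of 18 alternatives that can change a fold, 388 values in all. The other 4 change only the rule or the genes tested. Among the 14, the settings with another pseudocount change the size of a fold but cannot change its sign. A kept sign can go with almost no change: *Junb* at d8 against d0 had a log2 fold of 0.01 per spike-in UMI. Cells numbered above 48 gave no value for d1, d8c and d20, which hold too few. No paired analysis was possible because the columns carry no batch or replicate number.

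The number of members past the rule moved by over 1.5 times in these cases. Higher at d1 was 1 (main 4) with a 4-fold rule. Lower at d1 was 1 (main 0, *Egr2*) with at least 6000 detected genes, summed UMIs, edgeR TMM or DESeq2 factors. Higher at d8 against d0 was 2 (main 4) without a cell filter, with a pseudocount of 10 or with cells numbered 1 to 48, and 1 per spike-in UMI or with a 4-fold rule. Lower at d8 against d0 was 0 (main 2) with the back-transformed mean log2, a pseudocount of 10 or a minimum of 20 CPM. For d8c against d8, higher was 1 (main 4, *Fos*) per spike-in UMI and 2 with a 4-fold rule, and lower was 1 (*Fosl2*) per spike-in UMI. Higher at d12 against d8 was 2 (main 5, *Egr2* and *Nab2*) per spike-in UMI or with a 4-fold rule and 3 with cells above 48, and lower was 1 (*Fos*) per spike-in UMI and with cells above 48. Higher at d20 against d0 was 3 without a cell filter or with a 1.5-fold rule, 2 with at least 2000 detected genes and 1 with the back-transformed mean (main 0). Lower there was 9 (main 3) per spike-in UMI and 1 with a pseudocount of 10 or a 4-fold rule. The pairs of members with a median correlation above 0.2 were 5, and 6 by Pearson correlation of log2(CPM + 1), 6 after thinning and 5 when ranked within ranges of running number, which was added after the data had been seen. The pairs changed after thinning: *Fos* with *Egr1* (0.18) left, and *Jun* with *Junb* (0.29) and *Fosb* with *Fosl1* (0.33) entered. The last value rests on a *Fosl1* UMI in 1 of 82 thinned d2 cells.

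Scaling per spike-in UMI shifted the median of all genes by 0.21 (d1), -0.95 (d8 against d0), -0.86 (d8c), -1.01 (d12 against d8), -0.89 (d20 against d12) and -2.68 (d20 against d0). TMM shifted it by 0.22, -0.48 and -0.29 and DESeq2 factors by 0.21, -0.35 and -0.18 in d12 against d8, d20 against d12 and d20 against d0. Relative to the median of all genes per spike-in UMI, *Nab2* and *Egr2* stood at 4.63 and 5.21 (d12 against d8) and *Fosl2* at -4.29 (d20 against d12). Of genes past the rule, 45.6% were higher at d12 against d8, but 60.4% with TMM, 60.1% with DESeq2 factors and 8.15% per spike-in UMI. At d20 against d12 they were 57.3%, 39.8%, 44.6% and 23.9%, and at d20 against d0 54.8%, 42.2%, 47.8% and 2.1%. Per spike-in UMI they were also 61.2% at d1 (45.4% by CPM), 14.4% at d8 against d0 (55.5%) and 9.04% at d8c (47.2%). Counts of all genes ranged, over the alternatives, as follows (higher, then lower): d1 from 244 to 1924 (928) and 339 to 2007 (1116), d8 against d0 from 698 to 2958 (1846) and 465 to 4881 (1477), d8c from 330 to 2450 (1420) and 528 to 4104 (1586), d12 from 498 to 2208 (1462) and 355 to 5614 (1747), d20 against d12 from 894 to 4427 (3212) and 1412 to 3403 (2395), and d20 against d0 from 200 to 3591 (2353) and 1023 to 9332 (1940), with the value by the 2-fold rule in parentheses. The cause of these changes was not tested. Thinning moved 84 of 120 shares of cells outside their counting interval.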

Other observations

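The 138 cells left out, with a median of 15259 UMIs, belong in no comparison of the report. Over these cells the summed level was 130.6 CPM for *Fos*, 425.9 CPM for *Jun*, 88.9 CPM for *Egr1*, 1.68 CPM for *Egr2* and 1.44 CPM for *Nab2*, and *Fosl1* had none. A *Jun* UMI was found in 58.0% of them (49.3 to 66.3%) and an *Egr2* UMI in 4.35% (1.61 to 9.22%), at a depth at which a share counts cells with a UMI and not cells that express the gene.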
